A study of Mus musculus with 6 samples.

Results

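The genes described here encode the parts of the T cell receptor that carry its signal into the cell. They were chosen by name and are the CD3 chains Cd3d, Cd3e and Cd3g, the zeta chain Cd247, the coreceptor genes Cd4, Cd8a and Cd8b1, and the kinases Lck and Zap70. All 9 are listed among the 26012 genes of the deposited table, and all 9 passed the filter on low values that left 21126 genes for testing. The RNA came from the ventricles of male C57BL/6 mice, 8 weeks old, whose left anterior descending coronary artery had been ligated to cause a myocardial infarction (MI). At the operation 3 mice had 10 μg of control mimic injected into the heart muscle and 3 mice had 10 μg of miR-19a/19b mimics, and the hearts were taken on day 4 after MI. A mimic is a synthetic RNA duplex that works as the mature miRNA does. Every heart was infarcted, so the comparison is between mimics and not between injured and healthy hearts.

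The antigen receptor of a T cell is a pair of variable chains that bind a peptide held by an MHC molecule but have almost no cytoplasmic part of their own. CD3 and zeta chains, held in the same complex, carry the tyrosine motifs that Lck phosphorylates and to which Zap70 then binds. CD4 and CD8 bind MHC class II and class I and bring Lck to the complex. After MI, T cells enter the ventricle behind a larger wave of neutrophils and monocytes, and CD4+ T cells are known to take part in healing of the infarct. Whole ventricular tissue was sequenced, so fewer T cells and less of a transcript in each T cell cannot be told apart in these data.

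The injected miRNAs are printed because direct action on a transcript usually begins with a match to their seed, bases 2 to 8 from the 5′ end, shown in capitals. The mature sequences are those of RefSeq on GRCm38.p6. miR-19a and miR-19b differ only at position 11, outside the seed.
mmu-miR-19a-3p: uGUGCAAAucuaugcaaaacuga
mmu-miR-19b-3p: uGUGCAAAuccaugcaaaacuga
The letters sought on the transcript strand were TTTGCACA, TTTGCAC and TTGCACA, of which the first holds both others. The search covered, for each gene, its longest 3′ UTR in GENCODE M21. Of 15820 tested genes with a 3′ UTR, 18.4% held a match. Among the 9 receptor genes, Cd247 and Cd4 held 1 each, and Cd3d, Cd3e, Cd3g, Cd8a, Cd8b1, Lck and Zap70 held none of these letters. The matches are shown with the bases around them, the matching letters in capitals. The first lies at chr1:165869216-165869244 on the plus strand and the other at chr6:124865430-124865458 on the minus strand of GRCm38.
Cd247: tactactatttTTTGCACtccaagtttct
Cd4: acacacgcatgTTGCACAcatgcatgcac
The Cd247 match lies in the 3′ UTR of 4 of the 6 coding transcripts of the gene and also inside an exon of Pou2f1 on the other strand. A match in letters is a description and not a binding site, and other kinds of site were not searched for.

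Each heart had between 19398196 and 23645308 reads on genes, of which the 9 receptor genes together took 198 to 368. A value below is a normalized count, that is, the reads on a gene divided by a size factor of the library, unless another scale is named. In miR-19a/19b mimic replicate 1, 14 skeletal muscle genes summed to 3543 normalized counts against 37.1 to 76.1 in the other hearts. In miR-19a/19b mimic replicate 3, 12 cardiomyocyte genes summed to 377459 against 620906 to 1120375 in the others. The labels name no batch, and polyadenylated RNA does not hold the mature miRNA, so the delivery of the mimics was not checked here.

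All 9 receptor genes had a lower fitted level in miR-19a/19b mimic hearts, with a median log2 fold change of -0.44. Over all genes tested, 49.2% were lower and the median was 0.0041. With limma on log2(normalized count + 1), none of the 9 passed an adjusted p-value under 0.05, and 0 lower and 0 higher genes passed among all genes (0.0% in each direction). At an unadjusted p-value under 0.05 there were 555 lower and 293 higher genes. DESeq2 on the recovered reads called 28 lower and 1 higher gene at an adjusted p-value, and limma without miR-19a/19b replicate 3 called 164 and 383. At an unadjusted p-value under 0.05, Lck and Cd8a were lower, which is 22.2% of the 9 against 2.63% of all genes tested, and 0 of the 9 were higher against 1.39%. For Cd3e, Cd8a and Lck every miR-19a/19b mimic heart was below every control mimic heart, which is 33.3% of the 9 against 5.3% of all genes, and for 0 of the 9 every one was above, against 3.9%. The 9 genes were chosen with earlier results of these data known, so these shares are a description. The adjusted p-value was 0.9996 for each of the 9.

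**Figure D1:**
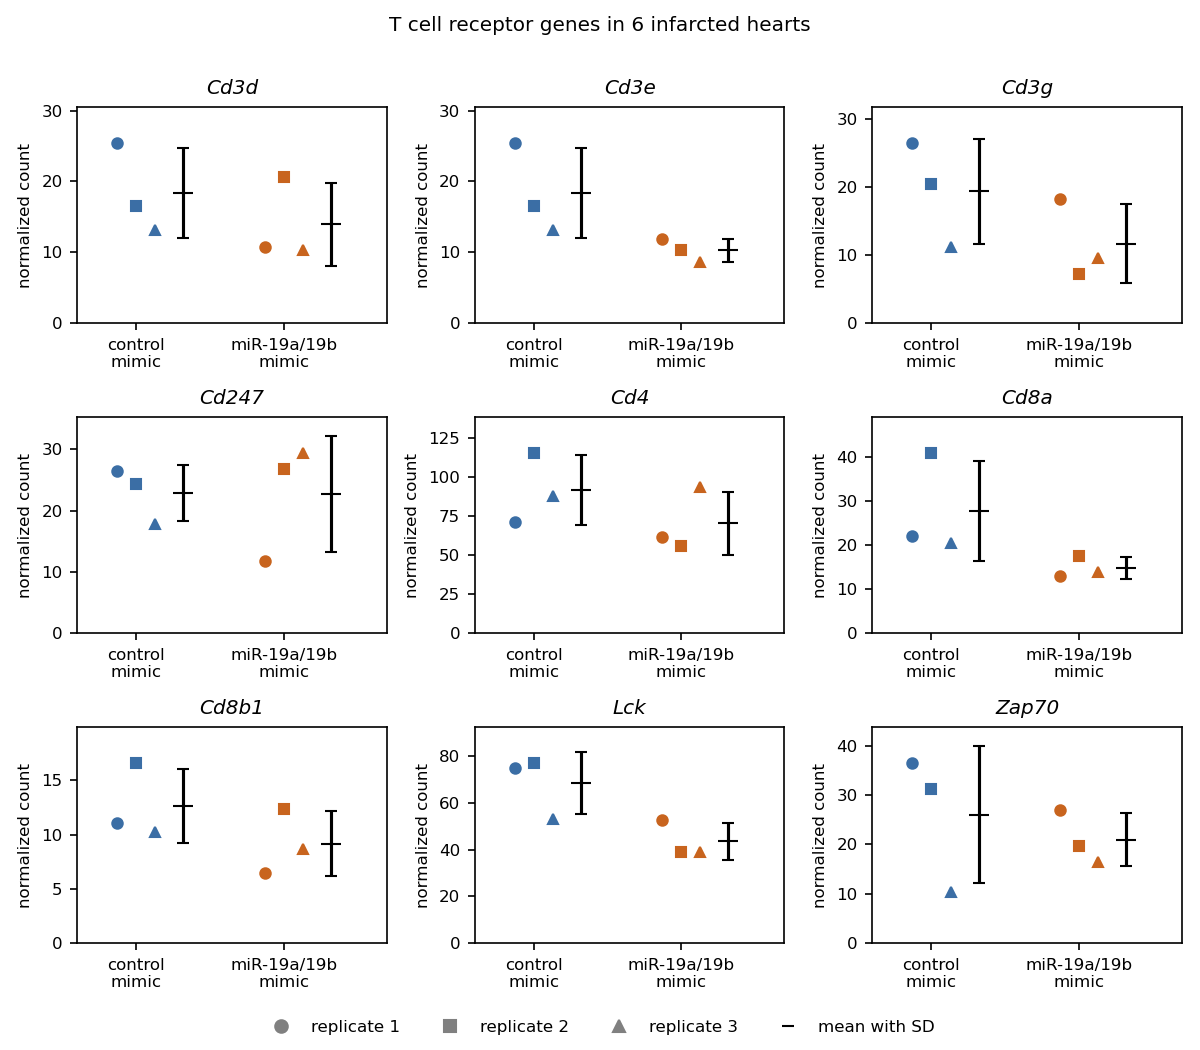
Normalized counts (vertical axis, linear from 0) of the 9 T cell receptor genes in each of the 6 hearts, by group, with the mean and SD of the 3 hearts beside the points. In Cd3e, Cd8a and Lck the orange miR-19a/19b mimic hearts all lie below the blue control mimic hearts, while in the other 6 panels the groups overlap.

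Cd3e, Cd3d and Cd3g lie side by side on chromosome 9 and encode the chains that pair within the receptor complex. Cd3e (ENSMUSG00000032093, chromosome 9 from 44998743 to 45009590, GRCm38) had 25.4, 16.6 and 13.1 normalized counts in control mimic hearts and 11.8, 10.3 and 8.64 in miR-19a/19b mimic hearts, given here and below in the order of replicates 1, 2 and 3. The groups did not overlap, but the gap between the lowest control heart and the highest miR-19a/19b heart was smaller than the spread among the control hearts. The means were 18.4 ± 6.36 and 10.3 ± 1.60 (SD, n = 3). The log2 fold change was -0.74 (standard error, SE, 0.35, 95% interval -1.53 to 0.04, unadjusted p = 0.0612 from limma), and without control replicate 3 it was -0.95 (unadjusted p = 0.0375). Cd3e shares exonic bases with the antisense gene Gm48719.

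For Cd3g (ENSMUSG00000002033, chromosome 9 from 44969572 to 44980431) there were 26.5, 20.5 and 11.2 normalized counts in control hearts and 18.3, 7.22 and 9.51 in miR-19a/19b hearts. Control replicate 3 fell within the range of the miR-19a/19b hearts. The log2 fold change was -0.71 (SE 0.44, unadjusted p = 0.144 from limma), and -1.06 without miR-19a/19b replicate 1 (unadjusted p = 0.0429). Cd3d (ENSMUSG00000032094, chromosome 9 from 44981793 to 44987052) had 25.4, 16.6 and 13.1 normalized counts in control hearts and 10.8, 20.6 and 10.4 in miR-19a/19b hearts. The highest miR-19a/19b heart lay above 2 control hearts. Its log2 fold change was -0.39 (SE 0.38, unadjusted p = 0.334 from limma). Its reads in the control hearts, 23, 17 and 14, were the same in number as those of Cd3e, although the genes do not overlap. In miR-19a/19b replicate 2, Cd3d had 20 reads where Cd3e had 10. Reads this few carry a wide counting error, for example 7 reads of Cd3g in that heart with an exact 95% Poisson interval of 2.81 to 14.4, which covers counting error only.

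Cd247 encodes the zeta chain, which carries most of the phosphorylation motifs of the complex and is also used by activating receptors of NK cells. It had 26.5, 24.4 and 17.8 normalized counts in control hearts and 11.8, 26.8 and 29.4 in miR-19a/19b hearts. Its highest and its lowest heart were both miR-19a/19b hearts. The means were 22.9 ± 4.58 and 22.7 ± 9.48 and the log2 fold change was -0.09 (95% interval -0.95 to 0.77, unadjusted p = 0.815 from limma). Without miR-19a/19b replicate 1 the log2 fold change was 0.30. Cd247 (ENSMUSG00000005763, chromosome 1 from 165788681 to 165877277) shares 3007 of its 5329 exonic bases with Pou2f1, a widely expressed transcription factor gene on the other strand. No source states that reads were counted by strand, so how much of the Cd247 value comes from its own transcript is uncertain. Pou2f1 had 292 ± 34.5 and 273 ± 42.7 normalized counts, a log2 fold change of -0.10.

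The coreceptor genes are all on chromosome 6. Cd8a (ENSMUSG00000053977, from 71373427 to 71379173) encodes the alpha chain of CD8, which marks cytotoxic T cells and is also found on some dendritic cells. It had 22.1, 41.0 and 20.6 normalized counts in control hearts and 12.9, 17.5 and 13.8 in miR-19a/19b hearts. The groups did not overlap, and control replicate 2 stood well above all other hearts. The means were 27.9 ± 11.4 and 14.8 ± 2.44 and the log2 fold change was -0.82 (SE 0.34, 95% interval -1.58 to -0.05, unadjusted p = 0.0383 from limma). Without control replicate 2 it was -0.51 (unadjusted p = 0.149 from limma), and the p-value was 0.0918 and 0.0648 without miR-19a/19b replicates 1 and 3.

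Cd8b1 (ENSMUSG00000053044, from 71322788 to 71337494) encodes the beta chain, which is found mainly on T cells. It had 11.1, 16.6 and 10.3 normalized counts in control hearts and 6.46, 12.4 and 8.64 in miR-19a/19b hearts, so the ranges overlapped. The log2 fold change was -0.44 (SE 0.37, unadjusted p = 0.271 from limma), and it ranged from -0.66 without miR-19a/19b replicate 2 to -0.24 without control replicate 2 or miR-19a/19b replicate 1. Part of a Cd8b1 transcript is repeated in 47 other genes at 95% identity or more over at least 100 bases, for example over 154 bases in Plpbp. Cd4 (ENSMUSG00000023274, from 124864692 to 124888221) encodes the coreceptor of helper T cells. Its normalized counts were 70.7, 115 and 87.8 in control hearts and 61.3, 55.7 and 93.4 in miR-19a/19b hearts. Replicate 3 of the miR-19a/19b hearts lay within the control range and the others below it. The log2 fold change was -0.38 (SE 0.26, unadjusted p = 0.169 from limma), and it was -0.61 without that heart (unadjusted p = 0.0236).

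Among the kinases, Lck (ENSMUSG00000000409, chromosome 4 from 129548344 to 129573641) phosphorylates the CD3 and zeta chains. It had 75.2, 77.1 and 53.3 normalized counts in control hearts and 52.7, 39.2 and 38.9 in miR-19a/19b hearts. The groups did not overlap, although control replicate 3 and miR-19a/19b replicate 1 were almost equal, at 53.3 and 52.7 normalized counts (57 and 49 reads). The means were 68.5 ± 13.2 and 43.6 ± 7.90 and the log2 fold change was -0.64 (SE 0.23, 95% interval -1.16 to -0.11, unadjusted p = 0.0231 from limma). Without control replicate 1, control replicate 2 or miR-19a/19b replicate 2 the p-value was 0.0788, 0.0786 and 0.0695. Zap70 (ENSMUSG00000026117, chromosome 1 from 36761798 to 36782818), which docks on the phosphorylated chains, had 36.5, 31.2 and 10.3 normalized counts in control hearts and 26.9, 19.6 and 16.4 in miR-19a/19b hearts. The highest and the lowest value were both in control hearts. Its log2 fold change was -0.15 (95% interval -1.19 to 0.90, unadjusted p = 0.755 from limma), and without control replicate 3 it was -0.69 (unadjusted p = 0.0685). The spread of Zap70 among control hearts was 7.71 times the variance that counting alone gives, the largest such ratio of the 9 genes in either group, where the smallest was 0.261 for Cd3e in miR-19a/19b hearts.

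**Figure D2:**
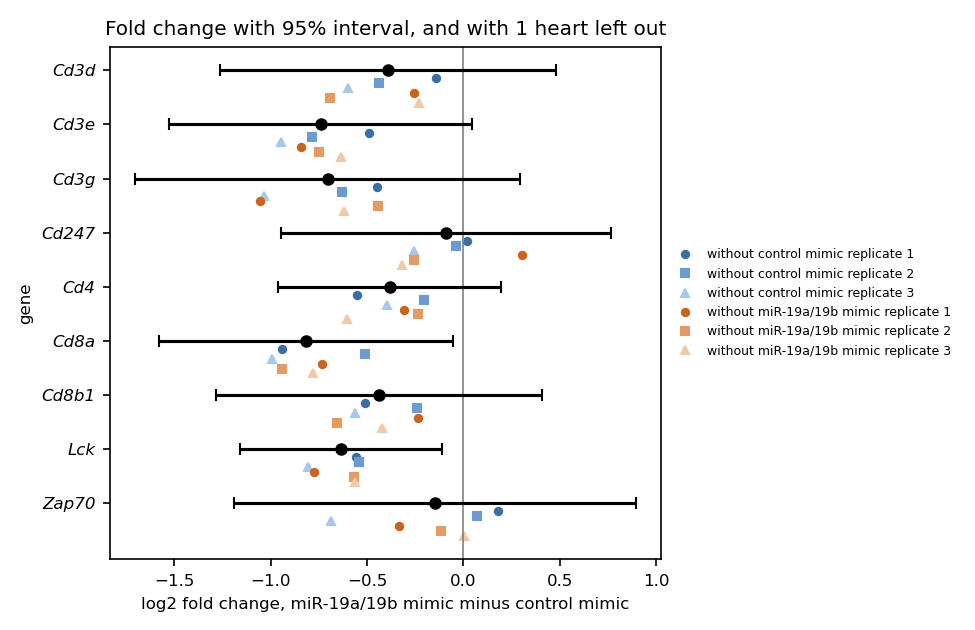
Log2 fold change of each T cell receptor gene, miR-19a/19b mimic minus control mimic (horizontal axis), with the 95% interval from limma (black) and the value after leaving out each heart in turn (coloured symbols). The intervals of Cd8a and Lck end below 0, at -0.05 and -0.11, the other 7 cross 0, and the coloured symbols cross 0 for Cd247 and Zap70.

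The same hearts were not high or low in every gene. Control replicate 1 was the highest heart for 4 of the 9 genes (Cd3d, Cd3e, Cd3g and Zap70), control replicate 2 for another 4 (Cd4, Cd8a, Cd8b1 and Lck), and miR-19a/19b replicate 3 for Cd247. Control replicate 3 was highest for 0 of them. Over the 6 hearts, Cd3g and Lck had a Pearson correlation of 0.91, Cd8a and Cd8b1 0.89, and Cd3d and Cd4 -0.25. These include the difference between the groups, and with group means removed they were 0.94, 0.87 and -0.64. Over the 36 pairs of genes the median was 0.44, and 0.22 with group means removed. All these values share the scaling of the same 6 libraries and are given as a description. The 9 genes summed to 319, 359 and 237 normalized counts in control hearts and to 213, 209 and 229 in miR-19a/19b hearts, so that control replicate 3 was nearer to the miR-19a/19b hearts than to the other control hearts. Scaled instead to the reads counted on genes, the sums overlapped, from 10.7 to 17.4 per 1000000 reads in control hearts and from 9.25 to 11.4 in miR-19a/19b hearts.

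Ratios between the genes, from which the size factor cancels, overlapped between the groups. CD8 genes together were 0.469, 0.500 and 0.351 times Cd4 in control hearts and 0.316, 0.537 and 0.241 times Cd4 in miR-19a/19b hearts. Lck and Zap70 together were 1.07, 1.39 and 1.15 times the CD3 and zeta chains in control hearts and 1.51, 0.905 and 0.955 times in miR-19a/19b hearts. Relative to Ptprc, which encodes CD45 and is found on all leukocytes, the 9 genes came to 139, 121 and 93.5 normalized counts per 1000 of Ptprc in control hearts and to 125, 111 and 88.6 in miR-19a/19b hearts. Ptprc itself had 2290 to 2975 normalized counts in control hearts and 1699 to 2586 in miR-19a/19b hearts. Cd247 was between 0.343 and 0.475 times the sum of Cd3d, Cd3e and Cd3g in control hearts and between 0.289 and 1.03 times in miR-19a/19b hearts.

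Levels of different genes can be compared only per length. In control hearts, the level in normalized counts per kilobase of listed gene length was highest for Lck (23.4 ± 4.52) and Cd4 (22.6 ± 5.56), then came Cd3g (18.1 ± 7.21), Cd3d (13.9 ± 4.81), Cd3e (12.8 ± 4.43), Zap70 (8.69 ± 4.63), Cd8b1 (8.52 ± 2.32) and Cd8a (7.67 ± 3.13), and Cd247 (4.30 ± 0.859) was lowest. Every neighbouring pair in this order overlapped in range except Cd8a and Cd247. In miR-19a/19b hearts the order was Cd4 (17.4 ± 5.04), Lck (14.9 ± 2.70), Cd3g (10.9 ± 5.46), Cd3d (10.5 ± 4.39), Cd3e (7.15 ± 1.11), Zap70 (7.01 ± 1.80), Cd8b1 (6.17 ± 2.02), Cd247 (4.26 ± 1.78) and Cd8a (4.06 ± 0.672), and all neighbours overlapped. Because of the bases shared with Pou2f1, the level of Cd247 per length is less certain than the others.

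The constant regions of the receptor itself were lower alongside. Of 11 receptor chain genes, the 4 CD3 and zeta genes among them, 8 were in the table. All 8 were lower, against 49.2% of all genes tested. The CD3 and zeta genes were already counted among the receptor genes above, and without them 4 of 4 were lower. At an unadjusted p-value under 0.05, 2 of the 8 (Trac and Trdc) were lower, against 2.63% of all genes tested. At an adjusted one 0 were. The count of 2 became 1 with edgeR, with the filter of 10 normalized counts or without control replicate 1 or 2 or miR-19a/19b replicate 1 or 3, and 0 with DESeq2. Trac (ENSMUSG00000076928, chromosome 14 from 54220521 to 54224206), the alpha chain constant region that every conventional T cell expresses, had 39.8, 49.8 and 42.0 normalized counts in control hearts and 25.8, 29.9 and 30.3 in miR-19a/19b hearts. The groups did not overlap, and control replicate 3 was not the lowest control heart, as it was for the CD3 and zeta genes. Its log2 fold change was -0.59 (SE 0.22, unadjusted p = 0.0255 from limma). Trdc, the delta chain region of gamma-delta T cells, was counted on 8, 2 and 5 reads in control hearts and on 0, 3 and 0 in miR-19a/19b hearts, too few to give a fold change. The beta chain regions, named here outside the rule after their values were seen, are near-identical copies whose reads may be split. Trbc1 had 24.1 ± 9.64 and 13.5 ± 1.76 normalized counts and a log2 fold change of -0.71 (unadjusted p = 0.0873 from limma), and Trbc2 had 27.3 ± 5.81 and 18.2 ± 1.46 and a log2 fold change of -0.54 (unadjusted p = 0.0844).

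**Figure D3:**
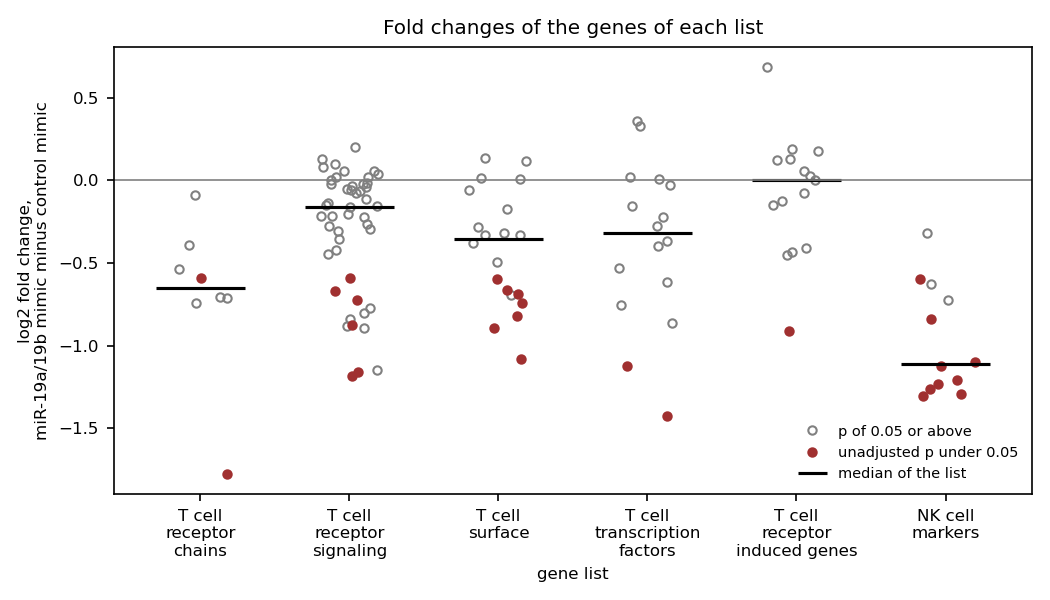
Log2 fold change, miR-19a/19b mimic minus control mimic (vertical axis), of each tested gene of 5 T cell lists and of the NK cell list, filled where the unadjusted limma p-value was under 0.05, with a bar at the median of each list. The medians lie at -0.65, -0.16, -0.36, -0.32 and 0.0013 for the T cell lists from left to right and at -1.11 for NK cells.

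Downstream of the receptor, 37 of 47 tested signaling genes were lower, with a median log2 fold change of -0.16. Of the 47, 6 (12.8%) were lower at an unadjusted p-value under 0.05, against 2.63% of all genes tested. None was higher at that threshold, and 0 passed an adjusted one. Without miR-19a/19b replicate 3 there were 18 lower and 1 higher, with a median of -0.32, and without control replicate 1 there were 3 lower. The median was nearest 0, at -0.09, without miR-19a/19b replicate 1, and it was -0.10 without miR-19a/19b replicate 2. Sh2d2a, an adaptor that binds Lck, had 46.0 ± 14.0 normalized counts in control hearts and 19.9 ± 7.50 in miR-19a/19b hearts (log2 fold change -1.18). Skap1, which couples the receptor to integrins, had 14.2 ± 1.83 and 5.98 ± 2.03 (log2 fold change -1.16), and Grap2, which ties Lcp2 to Lat, had 51.5 ± 10.7 and 31.5 ± 1.09 (log2 fold change -0.67). For these 3 genes the groups did not overlap. The most abundant genes of the list are used by many cell types, and their log2 fold changes were 0.02 for Grb2 and 0.10 for Dgkz.

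Of 20 T cell surface genes, 16 were lower, 7 of the 20 at an unadjusted p-value under 0.05, with a median log2 fold change of -0.36. The count of 7 became 3 without control replicate 1 and 4 without control replicate 2. Spn, the sialophorin CD43 of T cells and other leukocytes, had 334, 335 and 326 normalized counts in control hearts and 195, 189 and 236 in miR-19a/19b hearts. The control hearts differed little and lay well above the others, and the log2 fold change was -0.69 (SE 0.13, unadjusted p = 0.000453 and adjusted p = 0.547 from limma). Ccr7, a homing receptor for lymph nodes, had a log2 fold change of -0.82, Cxcr6, a chemokine receptor of tissue T cells, of -0.60, and Il2rb, which T and NK cells share, of -0.89. Thy1 and S1pr1, which fibroblasts and endothelial cells respectively also express, had log2 fold changes of -0.06 and 0.12. Of 16 T cell transcription factors, 12 were lower. At an unadjusted p-value under 0.05, 2 (12.5%) were lower, against 2.63% of all genes tested. These were Tbx21 (log2 fold change -1.43) and Eomes (-1.12). Both direct the effector programmes of T and NK cells, and Eomes is counted again among the NK cell markers below. This count of 2 became 1 with limma-voom or without control replicate 1 or 2, and 0, with a median of -0.15, under the filter of 10 normalized counts in every heart. Without miR-19a/19b replicate 3 there were 5 lower and 1 higher. The abundant Ets1 and Zbtb7b had log2 fold changes of 0.02 and -0.03.

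Of 15 tested genes that receptor signaling is known to induce, 7 were lower and 8 higher, with a median log2 fold change of 0.0013, and the per-heart means overlapped between the groups. Il2ra, the alpha chain of the IL-2 receptor, was the exception, lower at an unadjusted p-value under 0.05. This is 6.67% of the 15, against 2.63% of all genes tested. The count of 1 became 2 without control replicate 1, miR-19a/19b replicate 1 or miR-19a/19b replicate 3. Without the last of these 1 gene was higher and the median was -0.09, and with DESeq2 1 gene was higher. Il2ra had 29.8 to 39.2 normalized counts in control hearts and 17.6 ± 1.30 in miR-19a/19b hearts, with no overlap. Its log2 fold change was -0.91 (SE 0.25, unadjusted p = 0.00551 and adjusted p = 0.948 from limma). Egr1 and Myc, the most abundant of the list, are induced in many cell types, and their log2 fold changes were -0.13 and 0.06.

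**Figure D4:**
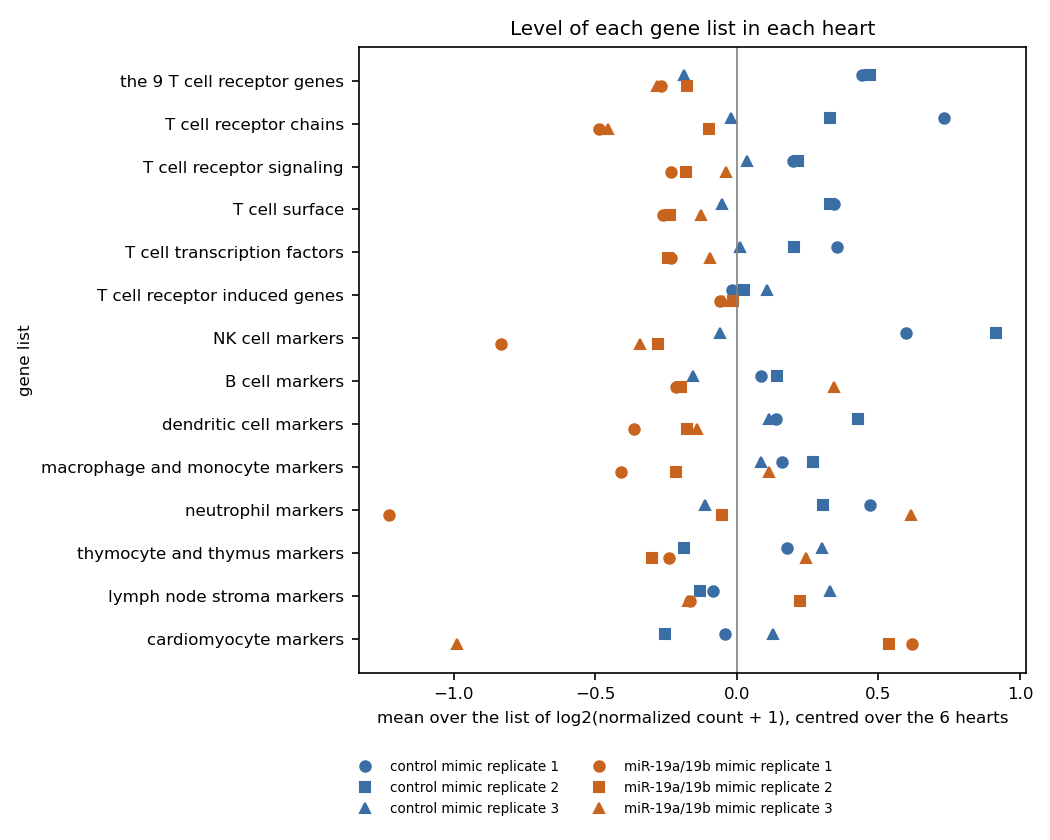
Mean over each gene list of log2(normalized count + 1), centred over the 6 hearts (horizontal axis), for each heart (blue, control mimic, orange, miR-19a/19b mimic, symbol by replicate). For the 9 T cell receptor genes control replicate 3, at -0.19, lies just below miR-19a/19b replicate 2, at -0.17, and of the lists drawn, which leave out skeletal muscle, neutrophil and cardiomyocyte markers are spread widest among the miR-19a/19b hearts.

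Markers of other cells that can carry the same transcripts were lower alongside, and their part in the receptor results was not tested. NK cells, which also express Cd247, Lck and Zap70, had 12 of 12 marker genes lower, 9 of them at an unadjusted p-value under 0.05, and their median log2 fold change was -1.11. The list summed to 320 to 556 normalized counts in control hearts and 172 to 263 in miR-19a/19b hearts. Gzma, its most abundant gene, encodes a granule protease of NK and cytotoxic T cells and had 91.0 ± 19.6 and 39.7 ± 14.7 normalized counts (log2 fold change -1.21), Nkg7 had a log2 fold change of -1.23 and the NK receptor gene Klra8 of -1.10. Of 12 dendritic cell genes, 10 were lower with a median log2 fold change of -0.51, and the list summed to 5258 to 6665 and 3553 to 4665 normalized counts. Bst2, Flt3 and Kmo had log2 fold changes of -0.62, -0.54 and -0.76.

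Macrophage and monocyte markers were lower for 11 of 12 genes with a median of -0.21 (-0.38 without miR-19a/19b replicate 3 and -0.13 without miR-19a/19b replicate 2), and their sums overlapped, at 90737 to 105430 and 72671 to 111013 normalized counts. Ly6c2 and Ccr2 of inflammatory monocytes had log2 fold changes of -1.77 and -0.53, and Lyz2, the most abundant, of -0.06. Neutrophil markers, 8 of 8 lower with a median of -0.35, overlapped at 2218 to 2996 and 1231 to 3991, with log2 fold changes of -1.52 for Retnlg and -0.33 for Csf3r. Their median was 0.21 without miR-19a/19b replicate 1, -0.71 without miR-19a/19b replicate 3, -0.22 without control replicate 1, -0.10 with edgeR and -0.12 with DESeq2. B cell markers, 6 of 10 lower with a median of -0.16, overlapped at 458 to 490 and 403 to 526, with -0.24 for Blk, and their median was 0.04 without miR-19a/19b replicate 1 and between -0.18 and -0.02 without any other heart. Cardiomyocyte markers, 3 of 12 lower with a median of 0.15, overlapped as well (0.14 for Myh6). Their median was -0.16 without miR-19a/19b replicate 1, -0.13 without miR-19a/19b replicate 2 and 0.72 without miR-19a/19b replicate 3, and 0.33 with DESeq2. Skeletal muscle markers, 14 of 14 higher with a median of 1.96 (1.97 for Mylpf and 2.44 for Actn3), were high in miR-19a/19b replicate 1, without which the median was 0.42.

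Thymus and lymph nodes lie near the heart and are rich in T cells, so their genes were read too. The thymus list summed to 275 to 340 normalized counts in control hearts and 273 to 423 in miR-19a/19b hearts, and 2 of its 6 tested genes were lower, with a median log2 fold change of 0.02 and the same value for Cd1d1, the most abundant. With a heart left out this median lay between -0.21 and 0.10. Rag1, which immature thymocytes need to rearrange their receptor genes, had 4 reads in control replicate 1 and 0 in the other 5 hearts, and Dntt had 4, 1 and 2 reads in control hearts and 0, 0 and 3 in miR-19a/19b hearts. Ptcra was at 0 in 5 hearts, with 1 read in miR-19a/19b replicate 2. Without control replicate 1, in which Cd3d, Cd3e and Cd3g were highest, their log2 fold changes were -0.14, -0.49 and -0.45. In the same fit Cd4, Cd8a and Cd8b1 were at -0.55, -0.94 and -0.51, further from 0 than with all hearts. Lck, Zap70 and Cd247 were at -0.56, 0.18 and 0.02. Whether tissue of the thymus or lymph nodes was present was not tested. Lymph node stroma markers, 2 of 5 tested lower with a median of 0.07, summed to 345 to 430 and 276 to 506, and with a heart left out their median lay between -0.16 and 0.23. Ccl21a, the most abundant, had a log2 fold change of 0.07 and Ccl19 of -1.24, on 11.4 ± 0.983 and 4.96 ± 3.79 normalized counts.

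The other genes were ordered by how closely their pattern over the 6 hearts followed the mean of the 9 receptor genes. Among 14179 other genes with a mean of at least 20 normalized counts, those with the highest Pearson correlation included Mthfd2, Umad1, H2-Q7, Ccdc57, Cfap43, AA474331, Thada, Trib3 and Ptbp2, at 0.967 to 0.991. H2-Q7, an MHC class I gene, had 1862, 1895 and 1040 normalized counts in control hearts and 865, 959 and 747 in miR-19a/19b hearts, the same standing apart of control replicates 1 and 2. In all, 69 genes exceeded 0.9 and 51 were below -0.9, so these genes are given as a description.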

How the data were processed

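RNA-seq libraries from 3 control mimic and 3 miR-19a/19b mimic hearts were grouped by their labels. Reads had been cleaned, aligned with STAR (2.5.1b) and counted per gene with HTSeq (0.6.0), and the submitters' processing notes also name DESeq2 (1.10.1). The signal that the authors deposited is a normalized count, for which reads on a gene were divided by a size factor (0.905 to 1.16). That factor was taken as the inverse of the smallest nonzero value of each library. Multiplying by it gave whole reads for 100% of the values, and these recovered reads entered the count models. The tolerance was 0.001 reads, and wider in proportion to the count for high counts. The processing notes name mm9, but 21401 of the 25884 gene identifiers found in GENCODE M21 have the same start and end there, so coordinates are given on GRCm38. The authors' own fold changes, p-values and list of dysregulated genes were not used. No library was a repeat of another, since the chi-square divided by its degrees of freedom was 11.1 to 148 within groups.

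The test was limma's moderated one (3.58.1, R 4.3.3), its prior allowed to follow expression, on log2(normalized count + 1). It covered 21126 genes, those whose mean reached 1, with Benjamini and Hochberg adjustment over all of them. Fold changes on this scale understate those of low genes. The labels call the hearts replicates, and the study's methods call them biological replicates. The fit was tested on simulated data. The receptor genes and all lists were chosen with earlier results of these data known. Beside the 9 genes, those named are the genes of each T cell list with an unadjusted p-value under 0.05 (at most 4) and its 2 most abundant, up to 3 such genes and the most abundant of each marker list, and the 10 genes most like the 9. Pou2f1, Plpbp, Ptprc, Trbc1, Trbc2, Rag1, Dntt and Ptcra are named outside this rule. Items that the rule names but that are withheld are not reported here. Alternatives were limma-voom, edgeR (4.0.16) and DESeq2 (1.42.0) on recovered reads, other scalings, pseudocounts and filters, a replicate block, and each heart left out. The main fit did not pair same-numbered hearts. A planned search of protein motifs was not run, as protein sequences were not used here.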

Additional observations from a re-analysis of the deposited data

How the results depend on the processing

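Lck and Cd8a, the 2 genes lower at an unadjusted p-value under 0.05, stayed so in all 10 settings that kept the 6 hearts. With a heart left out, the count of such genes ranged from 0 (without control mimic replicate 2) to 3, and was 1 without control mimic replicate 1 or without miR-19a/19b mimic replicate 2, where there are fewer hearts. Of the 9 genes, 7 to 9 had a log2 fold change below 0 with a heart left out, and the median was between -0.69 and -0.33. A filter of at least 10 normalized counts in every heart kept 6 genes. DESeq2 gave no adjusted p-value for genes it set aside as low, such as Cd3e. Cd247, at -0.09, turned to 0.0065 with edgeR's quasi-likelihood test, 0.00096 with DESeq2, 0.02 without control mimic replicate 1 and 0.30 without miR-19a/19b mimic replicate 1, and its lowest value was -0.32. Zap70, at -0.15 and as low as -0.69, turned to 0.18, 0.07 and 0.0051 without control mimic replicate 1, control mimic replicate 2 and miR-19a/19b mimic replicate 3. The cause was not tested. Without miR-19a/19b mimic replicate 3, 164 lower and 383 higher genes of all tested passed an adjusted p-value, and with DESeq2 28 and 1 did. With the replicate block, 2 of the 9 genes were lower at an unadjusted p-value under 0.05 and the median was -0.44, while 1 of the 8 receptor chain genes was. Same-numbered hearts deviated from their group means with correlations of -0.01, -0.21 and -0.34, and the other pairs of hearts with -0.30 to 0.36. With 3 hearts centred in each group, such values cannot tell whether same-numbered hearts were paired. By Spearman correlation, 0 of the 10 genes most like the 9 were among its 10 highest. Depth limits the 7 genes other than Cd4 and Lck most, at 6 to 42 reads per heart.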
